A study of Arabidopsis thaliana with 17 samples.

Results

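In Arabidopsis seedlings of the atdgcr14l-1 mutant, 118 genes stood above both the wild type and the complemented line before salt and after 24 h of salt. These 118 were selected on their measured levels from the 15286 loci with a mean level of at least 5 CPM (counts of a gene per 1000000 counts of its library) among 27655 loci in all. To be taken, a locus needed every atdgcr14l-1 library above every Col-0 and every OE-6 library at each time, and a mutant mean at least 1.5 times each of the other means at each time. The set makes up 0.772% of the loci at that level, and 4 further loci were set aside and are not described. Because the mutant's difference from Col-0 and from OE-6 chose the genes, it is given here as a description, without a test.

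AtDGCR14L (AT3G07790) is the Arabidopsis relative of human DGCR14, also called ESS2, a protein found in the spliceosome, the machine that removes introns from pre-mRNA. Transcripts that keep an intron or gain a premature stop can be destroyed by nonsense-mediated decay, so a change in splicing can reach the level of a whole gene in either direction. The values here are totals per gene and hold nothing on which introns were removed.

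Wild-type Col-0 was compared with the mutant atdgcr14l-1 and with OE-6, a complementation line. OE-6 is atdgcr14l-1 35S:AtDGCR14L, so it carries the mutant allele too, and the constitutive 35S promoter drives its added copy. Plants were 14 days old, grew in hydroponics, and were taken as seedlings at 0 h or 24 h of 200 mM NaCl. Of the 17 libraries, 2 were Col-0 at 0 h and each remaining group had 3. A single mutant allele and a single complementation line were measured, and every 24 h library was salt-treated, so salt and the passage of 24 h cannot be told apart.

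Library totals ran from 53058673 to 56464259 counts, and no 2 libraries held the same values. The targeted gene was lower in every library labelled atdgcr14l-1, at 6.66 to 8.34 CPM at 0 h against 52.0 to 57.8 CPM in Col-0 and 40.4 to 48.3 CPM in OE-6, and at 11.37 to 13.7 CPM at 24 h against 75.4 to 83.1 CPM and 71.8 to 87.0 CPM. The 4 green shoot markers summed to 22990 to 44780 CPM in all libraries. The 6 root markers summed to 26.6 to 43.5 CPM, with the root-hair genes PRP1 and EXPA7 under 0.1 CPM in every library. Flower markers, 6 genes, summed to 4.07 to 8.33 CPM in the mutant, 3.59 to 13.3 CPM in Col-0 and 3.59 to 67.4 CPM in OE-6, and their part in the results was not tested. Replicate 3 of the mutant and replicate 2 of OE-6, both at 24 h, were treated as standing apart from their groups, with no measure of distance given here. Without them the selection gave 134 genes, 101 of them among the 118. The mean log2 excess of the 118 genes over Col-0 at 24 h was highest in other libraries, replicate 2 of the mutant (1.09) and replicate 1 of OE-6 (0.21). No label states whether replicates were independent plants, so p-values measure the spread between libraries, which may be technical. In seedlings, more cells of a type and more RNA per cell cannot be told apart.

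At 0 h alone 290 loci (1.9%) met the rule for higher levels in the mutant, and at 24 h alone 301 loci (1.97%) did, of which 118 did so at both times. The mirrored rule, with the mutant lower, was met at both times by 39 loci (0.255%). With OE-6 put in the place of the mutant no locus met the rule in either direction. With Col-0 put there, 0 loci were higher and 1 was lower. Without the requirement of 1.5 times, 685 loci had every mutant library highest at both times.

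The typical excess was just under 2 times. The median ratio of mutant to Col-0 was 1.80 at 0 h, with a range from 1.5 to 3.52, and 1.87 at 24 h, with a range from 1.5 to 21.8. Against OE-6 the median was 1.88 at 0 h and 1.75 at 24 h. Over all 15286 loci the same 4 medians lay between 0.984 and 1.02. A ratio of at least 2 was reached by 34 genes against Col-0 at 0 h and by 40 at 24 h. The ratio to Col-0 was larger at 24 h than at 0 h in 72 of the 118 genes. It differed between the times by more than 1.5 times in 7 genes. Those larger at 24 h were MIOX2, the glucomannan synthase relative ATCSLA15, the serine carboxypeptidase-like gene scpl10, XTH24 and the glutathione S-transferase gene ERD9. Those larger at 0 h were AT4G19430 and the cellulose synthase-like gene CSLB03. Without replicate 3 of the mutant at 24 h, 3 genes were larger at 24 h by that margin. The ratio at 24 h was then 8.04 in MIOX2, 2.25 in XTH24 and 1.88 in ERD9, the last close to its 1.85 at 0 h. The mutant libraries of ERD9 at 24 h were at 78.8, 60.4 and 203 CPM, replicate 3 the highest, and its ratio with all 3 was 3.08. The ratio of LNK3 at 24 h was 1.43 without that library, under the 1.5 times required, and 2.54 at 0 h.

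**Figure D1:**
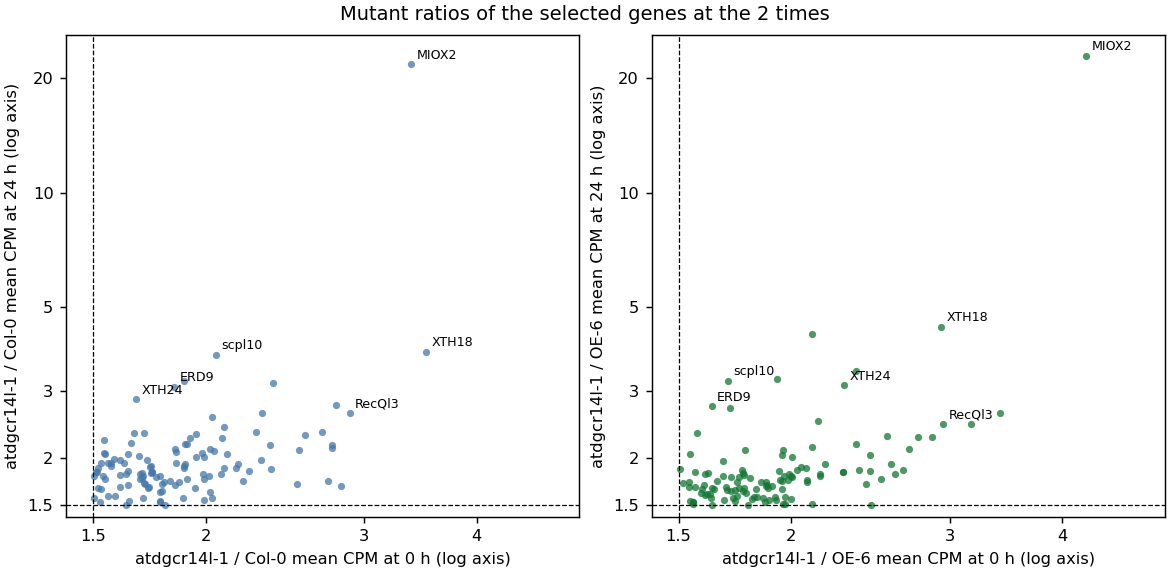
Ratio of mean CPM in atdgcr14l-1 to Col-0 (left) and to OE-6 (right), at 0 h on the x axis and at 24 h on the y axis, both log axes, with 1 point for each of the 118 genes. The dashed lines mark the 1.5 times that the selection required; most genes lie near 2 at both times, and MIOX2 stands at 21.8 and 22.9 at 24 h.

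The genes differed in how far salt moved the background on which the mutant's excess sat. In 89 of the 118, the mutant libraries at 0 h were above every Col-0 and OE-6 library of both times, and in 105 the mutant libraries at 24 h were. Both held in 76 genes. In the other genes a Col-0 or OE-6 library of the other time reached into the mutant's range. The rule already required the separation within each time, and these counts were not made for all loci. They are therefore not read as a trait of the set. Within the mutant at 24 h, replicate 2 held the highest value in 89 genes (75.4%), replicate 3 in 24 and replicate 1 in 5. The genes highest in replicate 2 had a median of 13 exons, and those highest in replicate 3 a median of 5. The mean log2 excess of the 118 genes over Col-0 of the same time was 0.88 to 0.95 in the mutant libraries at 0 h and 0.84 to 1.09 at 24 h. In OE-6 it was -0.13 to 0.02 at 0 h and -0.06 to 0.21 at 24 h, where replicate 1 was the highest.

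The smallest of a gene's 4 ratios set the boundary. Just inside were AT3G27470 with a smallest ratio of 1.5001, the receptor kinase gene SRF1 with 1.5019 and the kinase gene AT5G11850 with 1.5028. Just outside were AT1G20270 with 1.4993, AT3G08020 with 1.4961 and AT1G35350 with 1.4906, so the set has no natural edge there.

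Exon number, which the selection did not use, was about 2 times that of other loci. In the longest annotated transcript of each gene (TAIR10.1), the 118 had a median of 11 exons, with quartiles of 7 and 18 and a range of 1 to 39. The 15272 annotated loci at the same level had a median of 5, and the 39 loci lower in the mutant a median of 3. More than 10 exons were annotated in 60 of the 118 (50.8%), in 18.6% of all loci and in 1 of the 39. At the top were XIH, a myosin, with 39 exons, the Patched-family gene AT1G42470 with 37 and the calcium-transporting ATPase gene AT5G53010 with 33. The 6 single-exon genes were the ERF-family factor gene DREB26, the fasciclin-like arabinogalactan protein genes FLA9 and FLA13, the organic cation transporter gene OCT3, the aspartyl protease gene AT4G16563 and AT4G19430.

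From 2 exons upward the share of loci in the set was larger in each higher exon class, and that of lowered loci smaller or equal. Of loci with 1 exon 0.346% were in the set, of those with 2 to 5 exons 0.22%, and of those with 6 to 10 exons 0.877%. It was 1.4% at 11 to 15 exons, 3.25% at 16 to 20 and 3.5% at 21 or more. Lowered loci made up 0.577% at 1 exon and 0.392% at 2 to 5, and 0 of the 1045 loci with more than 15 exons. Transcript length moved with exon number, with a median of 2320.5 bases in the set against 1821 bases in all loci. Among transcripts of 2500 bases or more, 0 of 1105 loci with 1 to 5 exons and 37 of 1505 with more than 10 (2.46%) were in the set. Between 1500 and 2500 bases the shares were 0.242%, 1.07% and 1.87% for 1 to 5, 6 to 10 and more than 10 exons. Under 1500 bases they were 0.325% and 0.402% in the first 2 classes, and 0 of 101 loci with more than 10 exons were in the set. At mean levels from 10 to 25 CPM they were 0.187%, 1.01% and 3.73%. From 25 to 50 CPM they were 0.228%, 0.57% and 2.8%. The classes differed less at 50 CPM or more, with 0.297%, 0.337% and 0.764%. From 5 to 10 CPM the middle class was highest, at 2.43%, against 0.858% above 10 exons.

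**Figure D2:**
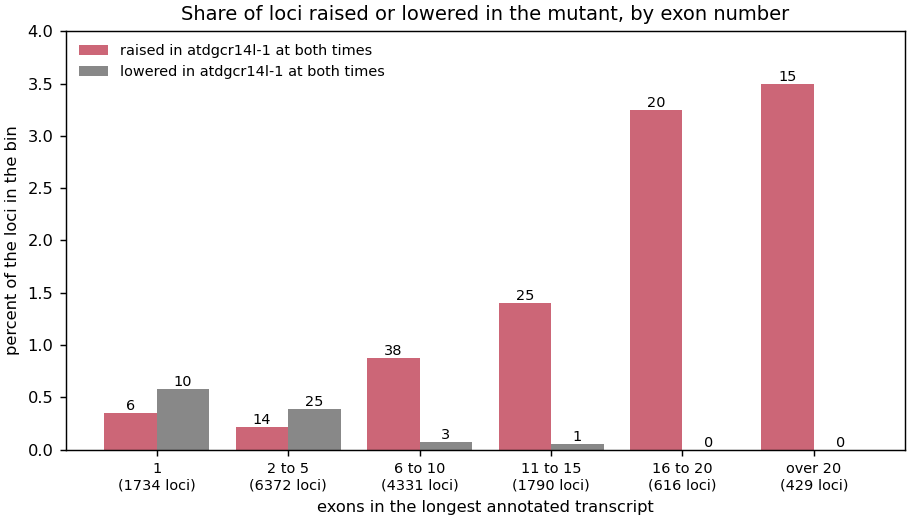
Percent of the loci in each exon class that were higher (red) or lower (grey) in atdgcr14l-1 at both times, with the number of loci over each bar and the class size under it. The share of higher loci runs from 0.346% at 1 exon to 3.5% above 20 exons, and no lowered locus has more than 15 exons.

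Loci outside both sets had a smaller difference of the same sign. Among 2774 such loci with more than 10 exons the median ratio of mutant to Col-0 was 1.06 at 0 h and 1.07 at 24 h, and against OE-6 it was 1.10 and 1.06. Among 8051 with 1 to 5 exons these medians were 0.997, 0.941, 0.984 and 0.962. The ratio of OE-6 to Col-0 had medians of 0.964 and 1.02 at the 2 times in the first class and 1.02 and 0.996 in the second.

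Introns of the set were close to those of all loci in median length and in the share that began with GT. The 1349 introns had a median length of 96 bases, against 100 bases over 86148 introns of all loci, and began with GT in 98.8% against 98.9%. Their upper length quartile was lower, at 135 bases against 164. The third base was A in 63.8% against 66.7%, and the fourth in 49.8% against 53.7%. Most introns are removed by the major spliceosome, and a rare class, called U12-type, by a minor one that reads a longer, strict 5′ splice site. The 7 first bases of that site, GTATCCT or ATATCCT on the gene's strand, were found in 7 introns of 6 genes of the set (5.08% of the 118). Over all loci they were found in 271 introns of 253 genes (1.66%). With so few genes this is a description, and a match to these letters does not show how the intron is removed. Per intron the share was 0.519% against 0.315%. The 7 sites are shown because they hold these letters, each as the first 12 bases of the intron, 5′ to 3′ on the gene's strand in RefSeq's TAIR10.1 sequence, with the matched letters in capitals.
ABA3 intron 2 (chr1:5660090-5660101, plus strand): GTATCCTcatct
AT2G40700 intron 2 (chr2:16977081-16977092, plus strand): GTATCCTtttcc
AT3G27470 intron 6 (chr3:10164688-10164699, plus strand): GTATCCTgcctt
LD intron 10 (chr4:1125955-1125966, minus strand): GTATCCTttcgt
CGL1 intron 13 (chr4:17933081-17933092, minus strand): ATATCCTtatat
ATLIG4 intron 10 (chr5:23159707-23159718, minus strand): GTATCCTtacga
ATLIG4 intron 19 (chr5:23157617-23157628, minus strand): GTATCCTtgaca
The intron of CGL1, which encodes an N-acetylglucosaminyltransferase of glycan maturation, ended in AC and the other 6 in AG. LD encodes a homeodomain protein of flowering time, ATLIG4 encodes DNA ligase IV of DNA end joining, and AT2G40700 a predicted helicase.

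The genes lay on all 5 chromosomes at 0.697% to 0.857% of the loci of each. Within 20 kb of another gene of the set lay 15 genes (12.7%), against 5.22% of all loci that lay so close to one. They were XTH18 with XTH24 (5162 bases apart), CPK26 with CGL1 (59 bases) and GAUT3, KEA6 with AT5G11850, MSRB9 with AT4G21880, SCAR4 with RAPTOR2, QWRF3 with SRF1, and ATLIG4 with AT5G57150. ATLIG4 and AT5G57150 overlap on opposite strands, and since the strand used in counting is not given in the sources, their reads may not be independent. In all, 25 of the 118 overlapped a gene of the other strand (21.2%, against 28.7% of all loci) and 8 one of the same strand. The first include LNK3, RAPTOR2, AT1G70430, AT4G38230 (CPK26), scpl10, SCAR4, LUP1 and KT1, and the second include LNK4, RGS1, DCL2 and ERD9. Near AtDGCR14L itself lay MAPKKK6 (54217 bases), AT3G07530 (82814 bases) and AT3G08960 (240357 bases), 3 of 201 loci within 500 kb.

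Sorted by what their products are known to do, 77 of the genes fell into 7 groups, made after the set was known. There were 18 in transcription, chromatin and DNA, 12 kinases and other signalling genes, 11 in membrane traffic and the cytoskeleton, 11 in transport, 9 in the cell wall, 9 in metabolism and 7 in RNA processing and decay. The other 41 were placed in none. The genes that act on RNA had a median of 14 exons, and the cell wall and transport genes a median of 9.

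The cell wall group held the highest ratios. MIOX2 (AT2G19800, chr2:8530865-8533779) encodes a myo-inositol oxygenase, which opens inositol to glucuronic acid, a source of wall sugars. Its level in Col-0 was 0.839 and 1.86 CPM at 0 h and 1.21, 1.55 and 1.57 CPM at 24 h. In the mutant it was 4.30, 2.58 and 6.84 CPM at 0 h and 13.3, 9.90 and 71.4 CPM at 24 h, and in OE-6 it was 1.26, 0.575 and 1.395 CPM and 2.53, 1.15 and 0.443 CPM. The mutant libraries did not overlap the others, and replicate 3 at 24 h was over 5 times the next mutant library. MIOX2 rose with salt in the mutant by 2.75 ± 0.75 (log2 fold change ± SE, edgeR quasi-likelihood adjusted p = 0.0067), a call that was lost without that library (adjusted p = 0.0687 in the same edgeR test). The mean level of MIOX2 over all libraries, 7.22 CPM, passed the 5 CPM required only through the mutant libraries at 24 h, replicate 3 above all. Its salt test in the mutant therefore uses values that admitted the gene, and is given as a description. In Col-0 its salt log2 fold change was -0.04 ± 0.88 (edgeR adjusted p = 0.97) and in OE-6 0.20 ± 0.80 (edgeR adjusted p = 0.85). Whether the salt responses of mutant and Col-0 differ was not tested, because that difference is made of the contrasts that chose the gene.

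XTH18 and XTH24 encode xyloglucan endotransglucosylase/hydrolases, which cut and rejoin wall xyloglucan. XTH18 (AT4G30280, chr4:14825757-14827211) was at 19.0, 17.7 and 12.6 CPM in Col-0 at 24 h, 54.5, 33.9 and 99.6 CPM in the mutant and 23.4, 10.1 and 8.93 CPM in OE-6. At 0 h it was near the bottom of the range, with 1.70, 2.49 and 2.81 CPM in the mutant, 1.07 and 0.253 CPM in Col-0 and 0.443, 0.431 and 1.51 CPM in OE-6. At both times the lowest mutant library stood above the highest of the other lines, at 0 h by little. Close paralogues of XTH18 exist, and how reads shared with them were counted is not given in the sources. With salt XTH18 rose in all lines, by 4.51 ± 0.75 in Col-0, 4.70 ± 0.59 in the mutant and 4.01 ± 0.62 in OE-6 (log2 fold change ± SE, edgeR adjusted p = 0.00033, 2e-05 and 0.00012). XTH24 (AT4G30270, chr4:14819192-14820595) was at 224, 166 and 166 CPM in Col-0 at 24 h, 530, 305 and 757 CPM in the mutant and 212, 170 and 130 CPM in OE-6. Its rise with salt was 1.96 ± 0.30 in the mutant and 1.43 ± 0.29 in OE-6 (log2, edgeR adjusted p = 6.6e-05 and 0.0009). In Col-0 it was 1.11 ± 0.33 (edgeR adjusted p = 0.014), and without either 0 h library the value was 1.16 or 1.06 and the call was lost (edgeR adjusted p = 0.0657 and 0.0906). The 1 library then left is taken to vary like those of the other groups.

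The wall group also held genes that salt lowered. FLA9 (AT1G03870, chr1:982381-983544), a fasciclin-like arabinogalactan protein gene, was at 101 and 164 CPM in Col-0 at 0 h and 225, 191 and 208 CPM in the mutant. At 24 h it was at 9.35, 7.49 and 8.65 CPM in Col-0 and 16.8, 13.1 and 19.6 CPM in the mutant, so the mutant stayed the higher line at a level more than 10 times lower. FLA9 fell by 4.10 ± 0.26 in Col-0, by 3.71 ± 0.24 in the mutant and by 4.03 ± 0.25 in OE-6 (log2, edgeR adjusted p = 7.1e-08, 2.7e-08 and 3e-08). The pectin acetylesterase-family gene AT5G23870 also fell in the 3 lines, by 0.69 ± 0.12, 0.58 ± 0.11 and 0.49 ± 0.11 (log2, edgeR adjusted p = 0.00032, 0.00031 and 0.0017). ATCSLA15 passed the salt test in no line, and its mutant libraries at 24 h spread from 6.22 to 19.7 CPM, the lowest close to the highest Col-0 library at 5.43 CPM. GAUT3, of a galacturonosyltransferase family that makes pectin, had ratios of 1.53 to 1.59.

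GASA1 (AT1G75750, chr1:28441501-28442435), a small cysteine-rich peptide gene of the gibberellin-responsive GASA family, lies in none of the groups. It was at 91.2 and 86.7 CPM in Col-0 at 0 h, 197, 140 and 184 CPM in the mutant, and 33.7, 49.9 and 68.8 CPM in OE-6. By 24 h it was at 654, 448 and 708 CPM in Col-0, 1339, 1178 and 1663 CPM in the mutant and 580, 508 and 503 CPM in OE-6. At 0 h every OE-6 library was below both Col-0 libraries, and at 24 h the 2 lines overlapped. With salt GASA1 rose by 2.63 ± 0.29, 2.95 ± 0.25 and 3.25 ± 0.25 in Col-0, the mutant and OE-6 (log2, edgeR adjusted p = 5.8e-06, 2.2e-07 and 1.5e-07). The difference between OE-6 and Col-0 at 0 h did not pass the edgeR test in this gene (log2 fold change -0.82 ± 0.25, adjusted p = 1, unadjusted p = 0.0059).

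Among genes that act on DNA and chromatin, RecQl3 (AT4G35740, chr4:16935988-16940372), a RecQ-family DNA helicase gene with 19 exons, had little spread within any group. It was at 9.48 and 8.87 CPM in Col-0 at 0 h, 26.4, 26.4 and 26.8 CPM in the mutant and 8.02, 10.6 and 8.37 CPM in OE-6. At 24 h RecQl3 was at 8.99, 11.1 and 10.5 CPM, 25.3, 31.4 and 23.7 CPM, and 11.04, 10.5 and 11.1 CPM in the same order of lines. The lowest mutant library was more than 2 times the highest other library at both times. Its salt log2 fold changes were 0.02 ± 0.12, -0.05 ± 0.10 and 0.14 ± 0.11 in Col-0, the mutant and OE-6, and none passed the edgeR test (adjusted p = 0.89, 0.72 and 0.27). TAF5, a subunit of the general transcription factor TFIID, was at 17.6 and 20.3 CPM in Col-0 at 0 h and at 38.9, 42.4 and 41.7 CPM in the mutant. ATLIG4 had ratios from 1.56 to 2.00.

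Transcription factor genes were also in the set. PHV (AT1G30490, chr1:10796124-10801093), an HD-ZIP III gene of leaf polarity whose transcript is cut by miR165 and miR166, was at 50.6 and 47.8 CPM in Col-0 at 0 h, 93.3, 96.5 and 94.4 CPM in the mutant and 49.1, 56.9 and 39.2 CPM in OE-6. At 24 h the mutant libraries of PHV were at 125, 164 and 133 CPM and the others between 53.1 and 78.4 CPM. With salt PHV rose in the mutant (0.51 ± 0.13) and in OE-6 (0.37 ± 0.13, log2, edgeR adjusted p = 0.0029 and 0.02), and the value in Col-0 was 0.21 ± 0.14 (edgeR adjusted p = 0.24). The OE-6 call was lost without OE-6 0 h replicate 3 or 24 h replicate 1 (edgeR adjusted p = 0.107 and 0.0704), and was at the threshold without 24 h replicate 3. With only the groups compared in the fit it was lost as well (edgeR adjusted p = 0.0758). DREB26, an ERF-family factor gene with 1 exon, was at 1.27 and 1.27 CPM in Col-0 at 0 h, 3.18, 2.78 and 4.66 CPM in the mutant and 1.01, 1.73 and 2.22 CPM in OE-6. It rose with salt by 2.01 ± 0.46, 2.08 ± 0.38 and 1.76 ± 0.39 in Col-0, the mutant and OE-6 (log2, edgeR adjusted p = 0.0024, 0.0003 and 0.0014). The mean of DREB26 over all libraries, 5.88 CPM, passed the floor only through the mutant libraries at 24 h. Its salt value in the mutant is therefore a description. The heat-shock-factor-family gene AT5G45710, listed under the symbol RHA1, was at 22.0, 22.0 and 23.5 CPM in the mutant at 0 h against 9.49 to 12.6 CPM in the other lines. The basic helix-loop-helix gene AT5G57150, which overlaps ATLIG4, rose by 1.39 ± 0.16, 1.57 ± 0.13 and 1.32 ± 0.13 (log2, edgeR adjusted p = 7.2e-06, 2.6e-07 and 1.7e-06).

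LNK3 (AT3G12320, chr3:3923515-3925502) and LNK4 (AT5G06980, chr5:2167120-2169437) belong to the 4 LNK genes, small light-induced genes whose best-studied relatives LNK1 and LNK2 work with morning MYB factors of the circadian clock. LNK3 was at 3.50 and 4.11 CPM in Col-0 at 0 h, 9.84, 9.73 and 9.39 CPM in the mutant and 4.94, 3.47 and 2.79 CPM in OE-6. At 24 h it was at 6.86, 4.54 and 5.74 CPM in Col-0, 7.95, 8.43 and 19.7 CPM in the mutant and 6.75, 5.74 and 6.26 CPM in OE-6. At 24 h, 2 of the mutant libraries of LNK3 were close to the highest Col-0 library and the other was far above. LNK4 was at 7.39 and 9.43 CPM in Col-0 at 0 h, 18.5, 15.9 and 17.2 CPM in the mutant and 6.20, 5.68 and 7.20 CPM in OE-6. At 24 h its mutant libraries were at 14.2, 13.4 and 30.2 CPM and the others between 8.31 and 10.4 CPM. Replicate 3 of the mutant was again the highest, and the groups did not overlap. Neither gene passed the salt test in any line. LNK1 (AT5G64170) had ratios of 1.04, 1.03, 0.924 and 0.815 and LNK2 (AT3G54500) of 1.01, 1.12, 1.08 and 0.877, to Col-0 and OE-6 at 0 h and then at 24 h.

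On a list of 30 clock genes LNK3 and LNK4 were the members of the set. Of the 28 clock genes outside the set, edgeR called 4 lower against Col-0 at 0 h (0.573% of all 21282 genes were) and 3 at 24 h (4.67%). Against OE-6 it called 8 lower at 0 h (1.48%) and 8 at 24 h (5.17%). None of the 28 was called higher, where 1.45% and 7.71% of all genes were against Col-0 at 0 h and 24 h and 3.09% and 6.79% against OE-6. At an unadjusted p under 0.05 in edgeR, 1 and 3 of them were higher against Col-0 and 3 and 1 against OE-6, and DESeq2 called 0, 2, 1 and 0 higher in the same order. The median log2 fold change of the 28 was -0.16 and -0.13 against Col-0 and -0.15 and -0.19 against OE-6, beside -0.01, -0.01, -0.01 and 0.02 over all genes. The comparisons share the mutant libraries. The 28 leave out LNK3 and LNK4, which were chosen for higher levels in the mutant, and the list holds none of the loci set aside. Nothing is therefore read from the lack of higher calls or from the sign of these medians. ELF4, an evening-complex gene, had ratios of 0.496 and 0.464 to Col-0 and OE-6 at 0 h and 0.518 and 0.458 at 24 h. The morning genes CCA1 and PRR9, both among the 28, had ratios of 1.65 to 2.97 but mean levels of 3.78 and 2.96 CPM, under the 5 CPM required. Against Col-0 at 0 h their log2 fold changes were 1.43 ± 0.49 and 0.90 ± 0.54. Neither passed the edgeR test there (adjusted p = 0.194 and 0.575). Of 3 further lists, the FLC clade with SVP (7 genes), trehalose phosphate phosphatases (10) and meiotic crossover genes (9), none held a gene of the set.

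The LNK promoters are shown because clock and light factors read the G-box and the evening element. Each is the 200 bases before the annotated start, 5′ to 3′ on the plus strand in RefSeq's TAIR10.1 sequence (chr3:3923315-3923514 for LNK3, chr5:2166920-2167119 for LNK4). Capitals mark the G-box CACGTG in LNK3, at -171 and -141, and the letters TATAAA in LNK4, at -189 and -43. Neither promoter holds the evening element, and that of LNK4 holds no G-box.
LNK3: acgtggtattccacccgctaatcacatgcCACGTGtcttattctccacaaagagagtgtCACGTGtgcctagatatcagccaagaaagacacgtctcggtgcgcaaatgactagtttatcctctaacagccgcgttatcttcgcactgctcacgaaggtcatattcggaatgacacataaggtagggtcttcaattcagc
LNK4: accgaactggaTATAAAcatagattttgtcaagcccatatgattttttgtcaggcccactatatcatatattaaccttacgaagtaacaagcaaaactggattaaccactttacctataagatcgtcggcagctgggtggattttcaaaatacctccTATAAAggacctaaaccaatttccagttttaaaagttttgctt
From 250 bases before to 50 after the start, on both strands, CACGTG was found in 16 of the 118 genes (13.6%) and in 9.21% of 15272 loci. The evening element AAAATATCT was found in 3.39% and 3.23%, the CCA1-binding site AAAAATCT in 8.47% and 8.39%, the W-box core TTGACC in 10.2% and 14%, and TATAAA in 51.7% and 50.6%. The 5 motifs do not contain one another. These shares are descriptions of letters and not of binding.

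**Figure D3:**
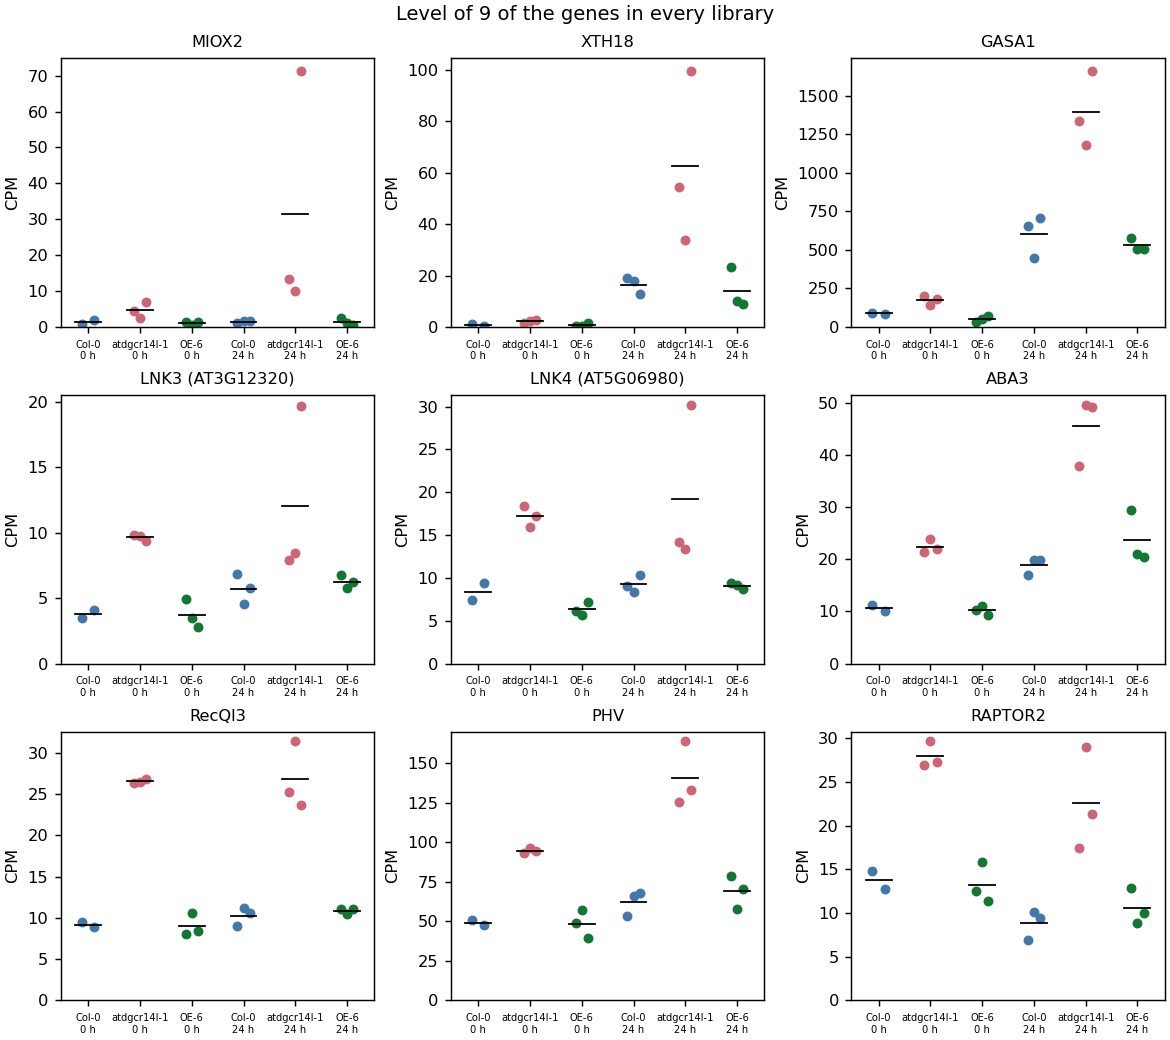
Level in CPM (y axes from 0) of 9 of the genes in every library, with 1 point per library, the group mean as a line, and lines and times on the x axis. Mutant points lie above all Col-0 and OE-6 points of the same time in each panel, and 1 mutant library at 24 h stands far up for MIOX2, LNK3 and LNK4.

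Signalling genes were many-exon genes for the most part, with a median of 13.5 exons. RAPTOR2 (AT5G01770, chr5:293675-302015), a subunit of the TOR growth-control kinase complex, was at 14.8 and 12.7 CPM in Col-0 at 0 h, 26.9, 29.6 and 27.3 CPM in the mutant and 12.6, 15.9 and 11.3 CPM in OE-6. At 24 h it was at 6.91, 10.1 and 9.45 CPM, 17.5, 29.0 and 21.3 CPM, and 12.8, 8.88 and 9.97 CPM in the same order. RAPTOR2 fell with salt by 0.77 ± 0.19 in Col-0 and by 0.47 ± 0.17 in OE-6 (log2, edgeR adjusted p = 0.004 and 0.032), and in the mutant the value was -0.37 ± 0.17 (edgeR adjusted p = 0.074). The OE-6 call was lost without OE-6 0 h replicate 2, 24 h replicate 2 or 24 h replicate 3 (edgeR adjusted p = 0.15, 0.0995 and 0.087). The protein kinase gene AT1G70430 had ratios of 2.36 to 3.39, between 19.91 and 20.01 CPM in the mutant at 0 h and 7.74 to 9.15 CPM in the other lines. CPK26, a calcium-dependent protein kinase gene, rose with salt by 0.86 ± 0.13, 0.99 ± 0.12 and 0.98 ± 0.12 (log2, edgeR adjusted p = 0.00012, 4.7e-06 and 7.1e-06). So did RGS1, which turns off the heterotrimeric G protein, by 0.95 ± 0.10, 1.15 ± 0.09 and 1.06 ± 0.09 (log2, edgeR adjusted p = 4.8e-06, 9e-08 and 2.8e-07).

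In the RNA group, DCL2, a Dicer that makes small RNAs against viruses, was at 32.3 and 27.1 CPM in Col-0 at 0 h, 58.1, 64.9 and 57.4 CPM in the mutant and 26.8, 33.0 and 26.8 CPM in OE-6. The pentatricopeptide repeat gene AT4G21880 had ratios of 1.85 to 2.1. Of the 7 genes of this group, 2 were called lower with salt in Col-0, 5 in the mutant and 4 in OE-6, where 21.4%, 26.7% and 25.7% of all genes were. Called higher were 0, 1 and 0, where 25.4%, 31.3% and 29.5% of all genes were. This group of 7 was made after the set was known, and nothing is read from its counts. The lowered genes included AT4G21880, which fell by 0.87 ± 0.18, 0.73 ± 0.16 and 0.91 ± 0.17 in Col-0, the mutant and OE-6 (log2, edgeR adjusted p = 0.0013, 0.0015 and 0.00033).

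Of the 11 genes of membrane traffic and the cytoskeleton, 4 were called higher with salt in Col-0, 6 in the mutant and 8 in OE-6, beside 25.4%, 31.3% and 29.5% of all genes. Called lower were 0, 0 and 1, beside 21.4%, 26.7% and 25.7%. In a group of this size, made after the set was known, nothing is read from these counts. ARP2, a subunit of the ARP2/3 complex that branches actin, was at 8.93 and 8.22 CPM in Col-0 at 0 h, 23.9, 22.4 and 24.8 CPM in the mutant and 8.86, 9.33 and 9.10 CPM in OE-6. SCAR4, of the family that activates ARP2/3, had ratios of 1.65 to 2.19. The phosphatidylinositol-transfer gene AT1G19650 had ratios of 1.89 to 2.1 and the PX-domain gene AT2G25350 of 1.86 to 2.03.

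In transport, KEA6, a potassium efflux antiporter gene, had ratios of 1.64 to 2.05 and rose with salt in the mutant (0.57 ± 0.10) and OE-6 (0.46 ± 0.10) (log2; edgeR adjusted p = 0.00018 and 0.0013). The Col-0 value was 0.18 ± 0.11 (edgeR adjusted p = 0.20). KAT2, a potassium channel gene, had ratios of 1.67 to 2.33, and KT1, a potassium transporter gene, of 1.52 to 1.67. OCT3 (AT1G16390, chr1:5602786-5604770) fell with salt by 2.36 ± 0.21, 1.94 ± 0.19 and 2.68 ± 0.21 (log2, edgeR adjusted p = 1.1e-06, 1.1e-06 and 1.3e-07). At 24 h its level was 1.92, 1.90 and 1.79 CPM in Col-0, 4.15, 3.28 and 3.44 CPM in the mutant and 1.19, 0.985 and 1.85 CPM in OE-6.

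The metabolic genes included ABA3 (AT1G16540, chr1:5659370-5665488), which encodes the molybdenum cofactor sulfurase that the last oxidase of abscisic acid synthesis needs. Its level was 11.3 and 10.1 CPM in Col-0 at 0 h, 21.5, 23.8 and 21.9 CPM in the mutant and 10.4, 11.1 and 9.31 CPM in OE-6. After 24 h the lines were at 16.95, 19.8 and 19.9 CPM, 38.0, 49.6 and 49.3 CPM, and 29.5, 21.1 and 20.5 CPM. The mutant at 0 h was above the Col-0 libraries after salt, and at 24 h OE-6 replicate 1 was the highest library of the other lines. ABA3 rose with salt by 0.69 ± 0.14, 0.97 ± 0.12 and 1.07 ± 0.12 in Col-0, the mutant and OE-6 (log2, edgeR adjusted p = 0.001, 1e-05 and 5.8e-06). FUM2, the cytosolic fumarase gene, was at 323, 309 and 283 CPM in Col-0 at 24 h, 677, 775 and 683 CPM in the mutant and 384, 559 and 285 CPM in OE-6. LUP1, a lupeol synthase gene, fell by 1.23 ± 0.13, 1.29 ± 0.12 and 1.59 ± 0.13 (log2, edgeR adjusted p = 6e-06, 7.5e-07 and 1.7e-07). NDA1, an alternative NAD(P)H dehydrogenase gene, had ratios of 2.31 to 3.17. The serine carboxypeptidase-like gene scpl10 rose by 1.77 ± 0.26, 2.72 ± 0.23 and 1.72 ± 0.22 (log2, edgeR adjusted p = 8.6e-05, 2.7e-07 and 1.9e-05).

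The selection did not compare 24 h with 0 h within a line. Genes near the floor, such as MIOX2, DREB26 and OCT3, reached 5 CPM through their mutant libraries, so their salt tests in the mutant are descriptions. Of the 118 genes 31 were higher and 20 lower with salt in Col-0 at an edgeR adjusted p under 0.05, 26.3% and 16.9% of them beside 25.4% and 21.4% of all genes tested. The mutant had 45 higher and 29 lower (38.1% and 24.6%, beside 31.3% and 26.7%), and OE-6 49 and 25 (41.5% and 21.2%, beside 29.5% and 25.7%). In Col-0 the share higher was close to that of all genes, and in the mutant and OE-6 it was above. The 2 sides are not alike, since all 118 reach 5 CPM and the 21282 genes tested include lower ones. What part level has in the difference was not tested. With single libraries left out the mutant's 45 went down to as few as 35, and OE-6's 49 to 41. The median log2 fold change was 0.00 in Col-0, 0.15 in the mutant and 0.14 in OE-6, beside 0.03 in each line over all genes. With library totals in place of TMM scaling, the median over all genes would be 0.15 in Col-0, 0.08 in the mutant and 0.15 in OE-6. In all 3 lines 28 genes rose and 17 fell, none was called in opposite directions and 32 were called in no line. The test called 11 in the mutant and neither other line, and 12 in Col-0 or OE-6 and not in the mutant, and the difference between lines was not tested for either. These counts over lines were not made for all genes, so they cannot be read as a trait of the set. Leaving out Col-0 0 h replicate 2 took the count higher in Col-0 from 31 to 20.

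**Figure D4:**
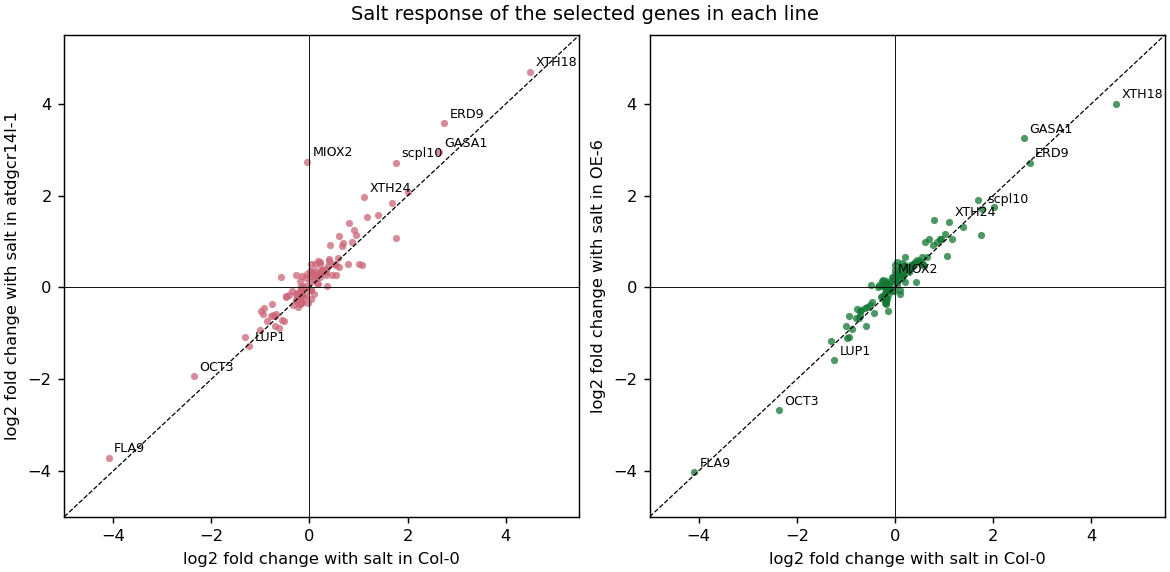
Log2 fold change between 24 h and 0 h of 200 mM NaCl for each of the 118 genes, in Col-0 on the x axis and in atdgcr14l-1 (left) or OE-6 (right) on the y axis, with equal responses on the dashed line. FLA9 lies at the lower end and XTH18 at the upper end in all lines, and MIOX2 lies off the line in the mutant.

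OE-6 and Col-0, the lines that bounded the selection from below, were not told apart in these genes by the tests. At 0 h edgeR called 0 of the 118 higher and 0 lower in OE-6 (0.0047% and 0.0094% of all genes), with 2 at an unadjusted p under 0.05 and 0 called by DESeq2. At 24 h it called 0 and 0 (0.0047% and 0.0%), with 14 at an unadjusted p under 0.05, 10 of them higher in OE-6, and 0 called by DESeq2. The log2 fold change of OE-6 over Col-0 ran from -0.82 to 0.37 at 0 h with a median of -0.03 and a median SE of 0.14, and from -0.65 to 0.52 at 24 h with a median of 0.11 and a median SE of 0.13. GASA1 had the lowest ratio of OE-6 to Col-0 at 0 h, 0.571, and MSRB9, a methionine sulfoxide reductase gene, the lowest at 24 h, 0.639. The highest at 24 h was 1.44, of SEC1B, a vesicle fusion gene. For the difference in salt response between OE-6 and Col-0 edgeR called 0 and 0 (0.0% and 0.0%), with 7 at an unadjusted p under 0.05 and 0 called by DESeq2. The selection required both lines to lie at least 1.5 times below the mutant, so a gene with OE-6 near the mutant could not enter. MAF5, called higher by edgeR in OE-6 than in Col-0 at both times, was barred in this way. Its ratios of mutant to OE-6 were 0.99 and 0.92. The counts of 0 were thus limited in advance, and they do not show that the lines were alike.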

How the data were processed

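Poly(A) RNA of seedlings was sequenced on a DNBSEQ platform from dUTP libraries, per the labels' protocols. The deposited values, made by the authors, are estimated counts (expected counts) per gene, and are whole numbers. StringTie 2.1.7, Bowtie2 2.4.5 and DESeq2 2.11.40.7 are named in the submitters' processing notes, without order. The sources used here give neither genome build nor strand setting. Totals of 53058673 to 56464259 counts per library set the precision.

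CPM is the count per 1000000 of a library's total, without further scaling. The 118 genes and the gene lists were chosen with earlier results of these data known. Salt within each line, OE-6 against Col-0 at 0 h and at 24 h, and the difference between their salt responses were tested, and for clock genes outside the set also the mutant against each line, with edgeR 4.0.16 in R 4.3.3 (filterByExpr, 21282 genes, TMM, robust quasi-likelihood fit of all 6 groups, Benjamini-Hochberg adjustment over all genes, threshold 0.05). All 118 genes passed the filter on low counts. The fit was tested on simulated data. Alternatives were RLE scaling, no filter, DESeq2 1.42.0, only the groups compared, a replicate block, each library left out, other settings of the selection and, added after seeing the data, ratios without atdgcr14l-1 24 h replicate 3. Replicate numbers were not taken to pair libraries, since same-numbered deviations correlated between -0.07 and 0.33.

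Exons, introns and sequences come from RefSeq's annotation of TAIR10.1, matched by locus identifier for all 118 genes; the longest transcript was used. Named genes are the 25 with the largest smallest ratio, those on a list, those nearest another gene of the set, the 5 with the smallest p for salt in each line and those at the boundary. Some of the 25 are named only here, with their ratios. They are EMB1895 (2.26 to 2.87), MEE13 (2.04 to 2.58), AT1G65950 (1.85 to 2.66), AT5G56850 (1.84 to 2.44) and AT1G49730 (1.82 to 2.28). Others, such as TAF5, DCL2, ARP2, FUM2, KAT2, KT1, ERD9, CSLB03 and SEC1B, were chosen after their values were seen. Figures and tables used Python 3.11.15, numpy 2.4.6, pandas 2.3.3 and matplotlib 3.10.9.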

Additional observations from a re-analysis of the deposited data

How the results depend on the processing

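The number of genes selected depended mainly on the fold required, with 373 at the smaller fold tried and 12 at 2 times in place of 118. It was 139 at a floor of 2 CPM, 98 at 10 CPM and 103 with TMM-scaled library sizes, of which 101 were among the 118. Leaving out single libraries gave 88 (without atdgcr14l-1 24 h replicate 2) to 148 genes (without replicate 3 of that group). Across these settings the median exon number stayed between 9.5 and 13. With single libraries left out, the genes called with salt ran from 20 to 33 higher and 18 to 22 lower in Col-0, from 35 to 47 and 20 to 36 in the mutant, and from 41 to 52 and 21 to 29 in OE-6. Leaving out Col-0 0 h replicate 2 gave the 20. Counts for OE-6 against Col-0, which the selection limited in advance, stayed at 0 under every alternative run. With the replicate block, which the labels' numbering would allow, salt counts were 29 higher and 20 lower in Col-0, 44 and 27 in the mutant and 50 and 26 in OE-6, and the numbers share no more than a label. Of 82 salt results of single named genes, 65 stayed past the threshold under every alternative, and none of 1886 values changed sign. Depth limits the genes near the floor, such as XTH18 at 0 h, and Col-0 at 0 h rests on 2 libraries.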
